A study of Mus musculus with 6 samples.

Results

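The 7 genes described here encode selenoenzymes that reduce peroxides, thioredoxin or oxidized methionine: the glutathione peroxidases Gpx1, Gpx3 and Gpx4, the thioredoxin reductases Txnrd1, Txnrd2 and Txnrd3, and the methionine sulfoxide reductase Msrb1. They were taken by gene symbol, as enzymes of these kinds, from the 41079 genes listed in the count and FPKM tables (fragments per kilobase of gene, scaled to library depth). RNA was sequenced from primary microglia of C57Bl/6N mouse pups of both sexes, aged 1 to 3 days, which were grown as mixed glia from pooled brains with L-929 conditioned medium and shaken off. The 3 control libraries came from serum-free DMEM/F12. The 3 optimized libraries came from the same medium with human TGF-β1, IL-34 and CX3CL1, each at 100 ng/mL per the labels, and, per the study's methods, cholesterol, insulin-transferrin-selenium and a collagen IV coating. All cultures had a brief exposure to serum when the cells were seeded. Selenium was thus a deliberate supplement of the optimized cultures alone and was given with every other supplement, so its part in any difference cannot be told apart from theirs. The study's methods describe such samples as independent biological replicates, although the labels do not say how the cultures were separated, and p-values measure the spread between these libraries.

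Selenoproteins carry selenocysteine, an amino acid that is inserted at an in-frame UGA codon when an RNA hairpin farther along the transcript recruits the selenocysteine tRNA and its elongation factor. Otherwise UGA ends translation. In some selenoprotein mRNAs a UGA read as a stop upstream of an exon junction can expose the transcript to nonsense-mediated decay. The usual rule asks for about 50 bases or more between stop and junction. Glutathione peroxidases use glutathione to reduce hydrogen peroxide or lipid hydroperoxides, thioredoxin reductases use NADPH to keep thioredoxins reduced, and Msrb1 returns methionine R-sulfoxide to methionine. In microglia and other phagocytes, these enzymes act against the peroxides made by NADPH oxidase and mitochondria.

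The selenocysteine codon is the feature that all 7 share, and its setting is shown because its place in the protein and in the exons differs between the families. The sequences are the coding strand of the GENCODE M39 transcripts on GRCm39 (mm39), read 5′ to 3′, with the selenocysteine codon in capitals.
Gpx1: aatgtcgcgtctctcTGAggcaccacgatc
Gpx3: aacgtagccagctacTGAggtctgacagac
Gpx4: aacgtggcctcgcaaTGAggcaaaactgac
Msrb1: ggacaatcaagattcTGAatatttagcagc
Txnrd1: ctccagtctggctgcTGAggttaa
Txnrd2: actgtgactggttgcTGAggctaa
Txnrd3: actcagaaaggctgcTGAggctag
In the 3 reductases the codon is the next to last of the reading frame, between a cysteine and a glycine codon, and the printed stretch ends with the stop codon. It is codon 498 of 499 in Txnrd1, 526 of 527 in Txnrd2 and 614 of 615 in Txnrd3. In the peroxidases it lies within the frame, at codon 47 of 201 in Gpx1, 73 of 226 in Gpx3 and 73 of 197 in Gpx4, and in Msrb1 it is codon 95 of 116. The last exon holds it in Txnrd1 and Txnrd3. In the others it lies upstream of the last exon junction, by 34 bases in Msrb1, 83 in Txnrd2, 105 in Gpx1, 240 in Gpx3 and 342 in Gpx4. The distance in Msrb1 is under the 50 bases of the usual rule. The base after the codon is G in 6 of the 7 genes and A in Msrb1.

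All 7 genes lie on the plus strand of GRCm39. Gpx1 is at chr9:108216102-108217546 with its selenocysteine codon in exon 1 of 2. Gpx3 is at chr11:54793279-54802424, with the codon in exon 2 of 5, and Gpx4 is at chr10:79883000-79892273, with the codon in exon 3 of 7. Txnrd1 lies at chr10:82669785-82733546, with the codon in exon 14 of 14. Txnrd2 lies at chr16:18245134-18297823 (exon 17 of 18), and Txnrd3 at chr6:89620934-89652512 (exon 16 of 16). Msrb1 spans chr17:24955614-24961752, and its codon is in exon 3 of 4.

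The libraries held 20628148 to 27261839 counts, of which the 7 genes took 15128 to 25728. Counts were tested with edgeR's quasi-likelihood test across 14618 genes that passed a filter on low counts, with Benjamini-Hochberg adjustment over all of them. At an adjusted p below 0.05 this called 29.8% of genes, 14.7% as higher and 15.2% as lower in optimized cultures, and the median log2 fold change of all genes tested was 0.01. Higher genes made up 49.1% of the calls, and 32.3% where libraries were scaled by their totals alone, which moved the median of all genes by -0.13. All 8 microglia markers had counts in every library, and their summed level was 6673 to 6935 CPM (counts scaled to library depth) in control and 11314 to 11950 in optimized libraries. The 4 astrocyte markers summed to 23.7 to 25.1 CPM in control and 10.01 to 11.7 in optimized libraries, a difference that lay mostly in Aldh1l1, the called 1 of the 4, while Gfap had a log2 fold change of 0.16 that did not pass. The summed levels in control and optimized libraries were 133 to 148 and 158 to 170 CPM for the 5 oligodendrocyte markers and 2.05 to 3.60 and 3.82 to 4.02 CPM for the 4 neuron markers, with Syt1 at 0 in 4 libraries. Of these, the neuron marker Nefl, with 4 to 35 counts per library, was called higher (log2 fold change 2.30, adjusted p = 0.00189 by edgeR). The oligodendrocyte marker Mbp was called higher too (0.34, adjusted p = 0.0233), a call that did not hold in every fit that leaves out 1 library. The 6 fibroblast markers summed to 36.9 to 48.9 CPM in control libraries, and to 49.7, 27.8 and 143 in optimized replicates 1, 2 and 3. Libraries of a condition also differed along gene length, read over 4 equal groups of genes by length. Against the other optimized libraries, optimized replicate 1 had a median log2 difference of -0.26 over the shortest group and 0.22 over the longest. Optimized replicate 2 went the other way (0.18 and -0.19), and optimized replicate 3 had 0.04 and -0.06. Control replicates 1, 2 and 3 had -0.10, -0.01 and 0.10 over the shortest group and 0.08, 0.01 and -0.10 over the longest. The shortest group held Gpx1, Gpx3, Gpx4, Txnrd2 and Msrb1. The part of these shifts in the results was not tested except where a value without optimized replicate 1 or with the length trend removed is given.

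Of the 7 redox selenoenzymes, all passed the filter. Gpx1, Gpx3 and Msrb1 rose in optimized cultures, Txnrd1 fell, and Gpx4, Txnrd2 and Txnrd3 did not pass the test. Msrb1 and Gpx3 were 3.34-fold and 3.28-fold higher and Gpx1 was 2.46-fold higher, whereas Txnrd1 fell by 26.1%. The 3 libraries of 1 condition all lay above those of the other for each of the 4 called genes and overlapped for the other 3, in TMM-scaled CPM. Over all genes tested, optimized libraries lay entirely above control libraries in 21.4% and entirely below them in 22.5%. The median log2 fold change of the 7 genes was 0.24. A bulk library cannot tell apart a change in mRNA per cell from a change in the share of cells that express the gene.

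**Figure D1:**
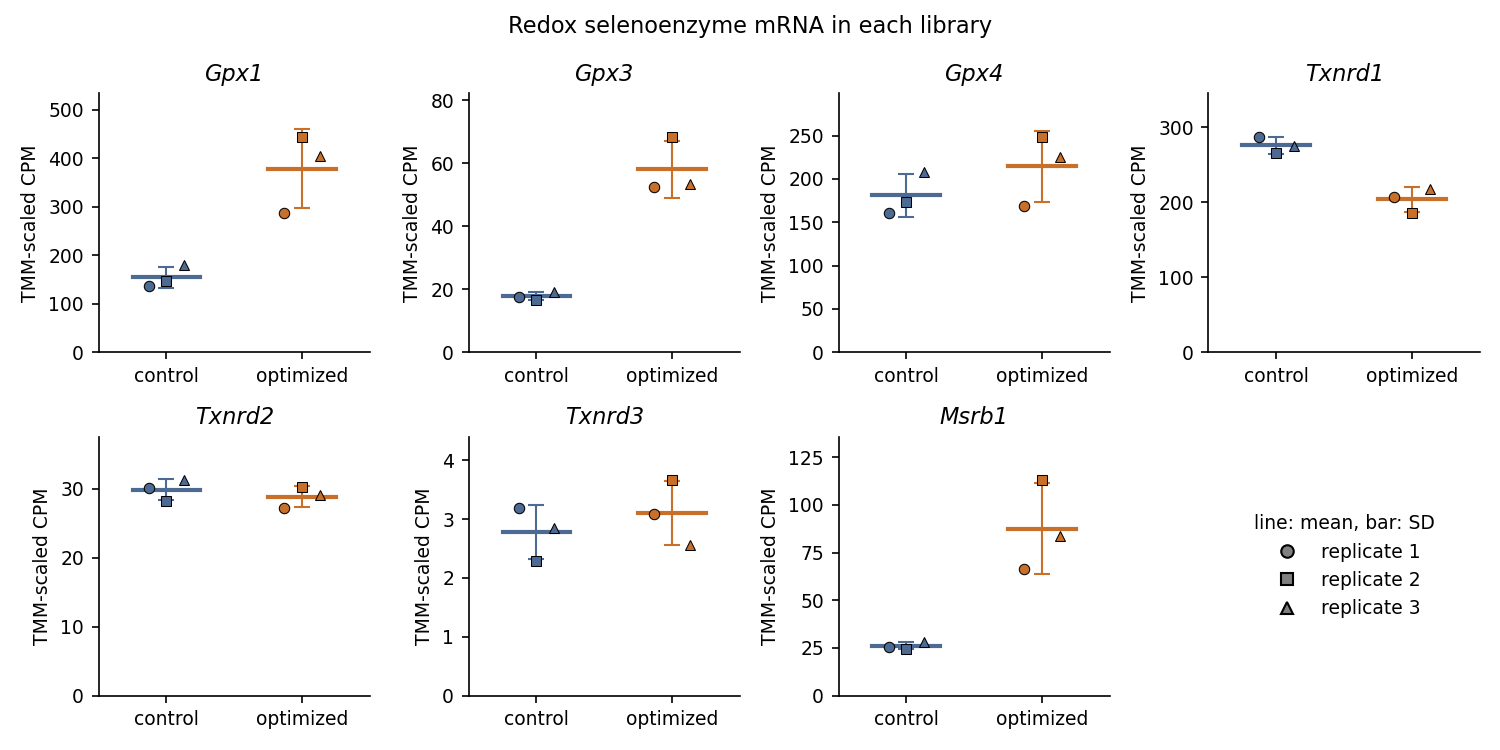
Normalized level (TMM-scaled CPM, linear axes from 0) of each of the 7 redox selenoenzymes in the 3 control and 3 optimized libraries, with points for libraries (shape gives the replicate), horizontal lines for group means and bars for the SD. Msrb1, Gpx3 and Gpx1 sit higher in every optimized library and Txnrd1 sits lower, while the points of Gpx4, Txnrd2 and Txnrd3 overlap.

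Gpx1, the abundant cytosolic glutathione peroxidase that reduces hydrogen peroxide, was measured at 136, 148 and 179 CPM in the control libraries and at 287, 445 and 406 CPM in the optimized libraries. The lowest optimized library was well above the highest control library. The control mean was 154 ± 22.1 CPM and the optimized mean 379 ± 82.5 CPM (SD, n = 3 each). The corresponding difference on the log2 scale was 1.30 ± 0.16 (SE), with an adjusted p of 0.000225 by edgeR. The 95% confidence interval of the fold ran from 1.90 to 3.17. In GENCODE M39, Gm57050 matches Gpx1 over 506 bases, and it is not in the count table.

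Gpx3, the secreted glutathione peroxidase known from plasma, stood at 17.5, 16.6 and 19.1 CPM in control and 52.5, 68.5 and 53.4 CPM in optimized libraries. The control libraries lay close together, far below the lowest optimized library. The log2 fold change was 1.71 ± 0.12 (SE), with an adjusted p of 5.24e-06 by edgeR and a fold between 2.70 and 3.98. Gpx3 shares 2603 of its 3062 exon bases in GENCODE M39 (85.0%) with Tnip1, a gene on the opposite strand that encodes an inhibitor of NF-κB signaling. Since the strand setting of the counting is not given in the sources used here, reads of the pair may not be separated. The gene length implied by the count and FPKM tables was near 1670 bases for Gpx3, so the authors' model was shorter than this one. Tnip1 itself was at 55.7, 49.6 and 60.5 CPM in control and 43.6, 49.94 and 50.02 CPM in optimized libraries (log2 fold change -0.21, adjusted p = 0.164 by edgeR).

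Gpx4, which reduces phospholipid hydroperoxides within membranes and restrains ferroptosis, had 161, 174 and 209 CPM in control and 169, 249 and 226 CPM in optimized libraries. Optimized replicate 1 fell within the control range, and the other optimized libraries were above it. The log2 fold change of 0.24 ± 0.15 (SE) did not pass the test (adjusted p = 0.262 by edgeR), and its 95% interval of -0.09 to 0.58 held both a small fall and a rise. Without optimized replicate 1 the log2 fold change was 0.39 with an adjusted p of 0.0073, and with the gene length trend removed, an alternative added after seeing the data, it was 0.27 with an adjusted p of 0.0325, so that the call on Gpx4 depended on that library and on this correction. GENCODE M39 has 4 other genes that match Gpx4 at 95% identity or more over part of its transcript, among them Gpx4-ps1 (95.1% over 535 bases) and Gpx4-ps2 (99.6% over 555 bases). None of the 4 is in the count table, and the handling of reads that match several places is not given in the sources used here.

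Msrb1, the cytosolic and nuclear methionine-R-sulfoxide reductase, known in macrophages for acting on oxidized actin, was at 25.7, 24.6 and 28.3 CPM in control and at 66.3, 113 and 83.6 CPM in optimized libraries. All optimized libraries exceeded all control libraries, and they spread more widely (mean ± SD of 87.6 ± 23.6 against 26.2 ± 1.88 CPM, 3 libraries in each condition). The log2 fold change of 1.74 ± 0.17 (SE) was the largest of the 7, with an adjusted p of 4.47e-05 by edgeR and a fold between 2.55 and 4.38, an interval that covers the fold of Gpx3.

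Txnrd1, the cytosolic thioredoxin reductase, was measured at 287, 265 and 274 CPM in control and 207, 186 and 218 CPM in optimized libraries. Every optimized library was below every control library, and each group was tight. The log2 fold change was -0.44 ± 0.09 (SE), with an adjusted p of 0.00426 by edgeR and a 95% interval from -0.64 to -0.24.

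Txnrd2, the mitochondrial thioredoxin reductase, stood at 30.1, 28.2 and 31.3 CPM in control and 27.2, 30.3 and 29.1 CPM in optimized libraries. On this scale its groups overlapped, whereas in the deposited FPKM the control libraries (15.4 to 16.4) all lay above the optimized libraries (13.6 to 14.3). The interval of the log2 fold change, -0.26 to 0.16, had 0 near its middle (estimate -0.05, adjusted p = 0.747 by edgeR). Txnrd3, the thioredoxin-glutathione reductase best known from testis, was scarce, with 53 to 86 counts and 2.28 to 3.66 CPM per library. At that depth its log2 fold change of 0.16 had an interval from -0.34 to 0.67 (adjusted p = 0.648 by edgeR), so a moderate change in either direction was not detectable.

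Ratios of counts within a library do not depend on the scaling between libraries. They can still carry the differences along gene length described above. Gpx1, Gpx4, Msrb1 and Txnrd2 were in the shortest group of genes by length and Txnrd1 in a longer one. No ratio was computed with the length trend removed, so the part of that trend in the ratios was not tested. Gpx1 reduces hydrogen peroxide and Gpx4 phospholipid hydroperoxides. The count ratio of Gpx1 to Gpx4 was 0.845, 0.852 and 0.858 in control and 1.70, 1.79 and 1.80 in optimized libraries. It was nearly constant within each condition and rose by 1.05 on the log2 scale. The ratio of Msrb1 to Msra, the selenium-free reductase of the methionine S-sulfoxide, went from 1.52, 1.31 and 1.39 to 5.93, 7.39 and 6.75, a log2 difference of 2.25. The ratio of cytosolic Txnrd1 to mitochondrial Txnrd2 was 9.54, 9.40 and 8.78 in control and 7.61, 6.13 and 7.501 in optimized libraries, a log2 difference of -0.39. The ratio of Gpx4 to Txnrd1 was 0.561, 0.654 and 0.760 in control and 0.815, 1.34 and 1.03 in optimized libraries, a log2 difference of 0.67. The groups did not overlap in any of the 4 ratios. Each gave p = 0.1 by the exact two-sided permutation test over 3 against 3 libraries, also after Benjamini-Hochberg adjustment over the 4, which is the smallest p this design allows.

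**Figure D2:**
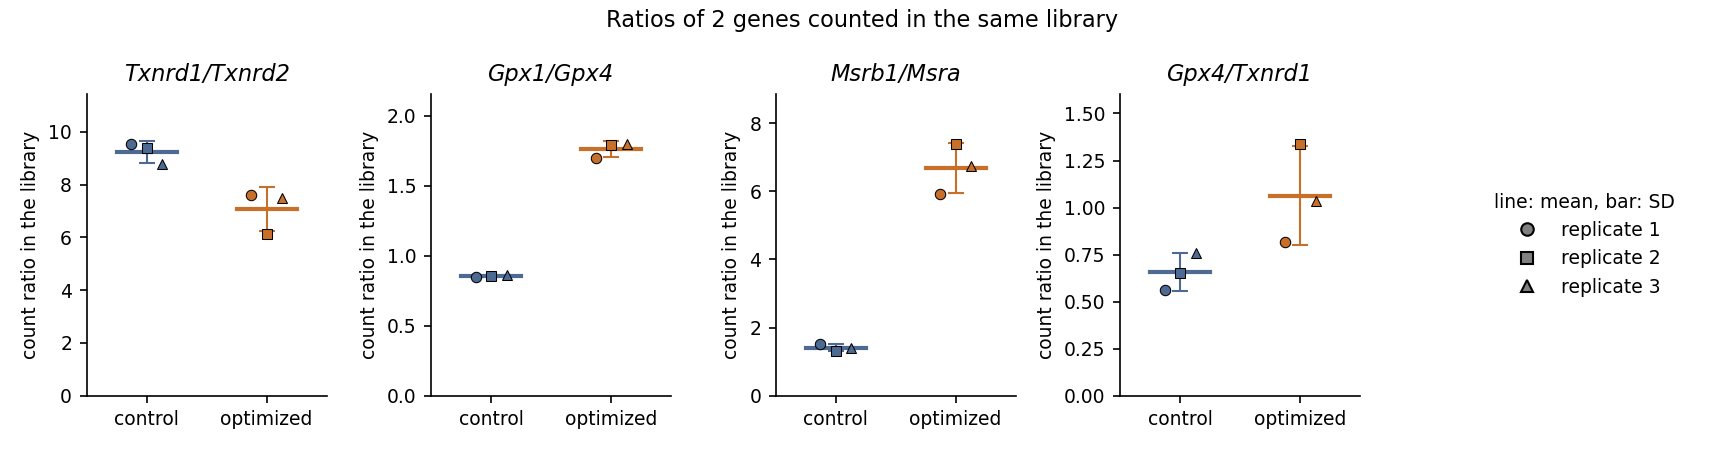
Ratio of the counts of a pair of genes in the same library (linear axes from 0) for the 3 control and 3 optimized libraries, with points for libraries, lines for means and bars for the SD. Gpx1 over Gpx4 moves from 0.852 ± 0.00659 to 1.76 ± 0.0553 and Msrb1 over Msra from 1.40 ± 0.105 to 6.69 ± 0.732 (mean ± SD, n = 3 each).

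Between genes, levels were compared per length, in FPKM. In control libraries Gpx1 (149.6 ± 16.0 FPKM, SD, n = 3) and Gpx4 (125 ± 12.5) led, with overlapping ranges. Txnrd1 (69.7 ± 3.91), Msrb1 (20.3 ± 0.736), Txnrd2 (15.9 ± 0.484), Gpx3 (11.1 ± 0.432) and Txnrd3 (0.994 ± 0.164) followed, each apart from its neighbor. In optimized libraries Gpx1 (333 ± 62.2 FPKM) stood clear of Gpx4 (134 ± 21.4). Msrb1 (61.4 ± 13.9) and Txnrd1 (46.9 ± 5.41) came next and overlapped, and Gpx3 (33.0 ± 3.65) had passed Txnrd2 (14.0 ± 0.323). Txnrd3 was lowest in both conditions.

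Over the 7 genes, the summed level was 372, 386 and 421 FPKM in control and 515, 693 and 664 FPKM in optimized libraries. Gpx1 supplied 38.0% ± 1.66 of that sum in control and 53.2% ± 2.07 in optimized cultures (SD, n = 3 each). The share of Gpx4 was 31.8% ± 1.14 in control and 21.5% ± 0.174 in optimized cultures, and that of Txnrd1 17.8% ± 2.07 and 7.69% ± 1.84. Msrb1 went from 5.19% ± 0.252 to 9.79% ± 1.04 and Gpx3 from 2.83% ± 0.153 to 5.35% ± 0.682. Shares of a sum move together by construction, so that the smaller share of Gpx4 is no sign of a lower Gpx4 level.

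**Figure D3:**
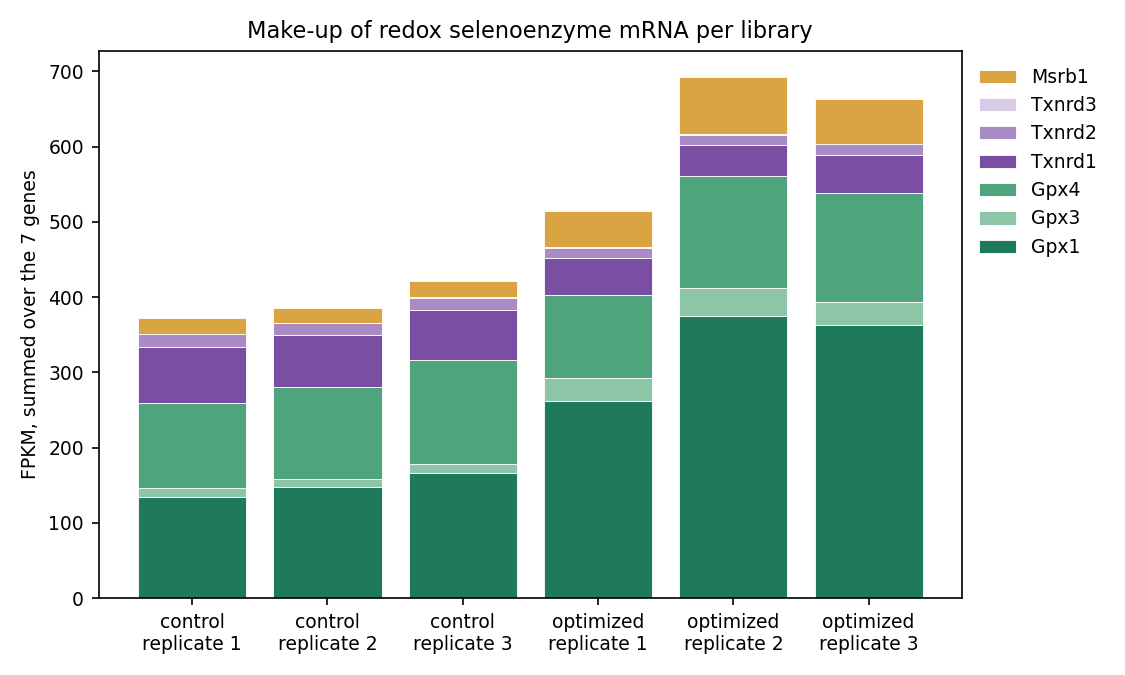
Level of each redox selenoenzyme (FPKM, stacked from 0) in each control and optimized library, so that the height of a bar is the sum over the 7 genes. The bars reach 372 to 421 FPKM in control and 515 to 693 FPKM in optimized libraries, and the Gpx1 segment is the tallest in each.

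Over all genes tested, 14.7% were called higher and 15.2% lower, which is the background for the list counts from here on. The other selenoproteins were read in the same fit, to set the 7 enzymes beside further genes with a selenocysteine codon. Their list includes the glutathione peroxidase Gpx2. Of 17 listed, 12 passed the filter, 7 of these rose and 5 did not pass the test, with a median log2 fold change of 0.34. Scaled by library totals alone, 5 of the 12 rose and 1 fell, with a median of 0.21. Selenow, a small thioredoxin-like protein, was at 20.3, 23.3 and 23.6 CPM in control and 42.1, 81.0 and 60.0 CPM in optimized libraries (log2 fold change 1.44, adjusted p = 0.00042 by edgeR). Selenom, of the endoplasmic reticulum, and the nucleolar Selenoh rose by 1.35 and 1.31 on the log2 scale. Sephs2, the selenophosphate synthetase that makes the selenium donor for selenocysteine and is itself a selenoprotein, went from 49.3 ± 1.80 to 89.7 ± 6.98 CPM (SD, n = 3 each; log2 fold change 0.86, adjusted p = 5.6e-05). Selenof, Selenon and Selenot rose by less, with log2 fold changes between 0.33 and 0.51. The call on Selenof was lost without control replicate 1 (adjusted p = 0.0551), and that on Selenot without control replicate 1 or 3 or optimized replicate 3 (adjusted p from 0.0558 to 0.0698). Selenop, the secreted selenium carrier and the most abundant of these transcripts at 1469 ± 114 CPM in control, had 1379, 1597 and 1432 CPM in control and 1070, 1324 and 1206 CPM in optimized libraries. Its optimized libraries all lay below the control libraries, but the log2 fold change of -0.29 did not pass the test (adjusted p = 0.0804 by edgeR). The fall was called without optimized replicate 2 (-0.38, adjusted p = 0.0328), and also with library totals as the scale (adjusted p = 0.00667), DESeq2 (0.0319), limma on each of the 3 FPKM settings (0.0188 to 0.0463) and the gene length trend removed (0.0281), so that the call on Selenop depended on the method. The iodothyronine deiodinases, Gpx2 and Selenov were too scarce to be tested.

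**Figure D4:**
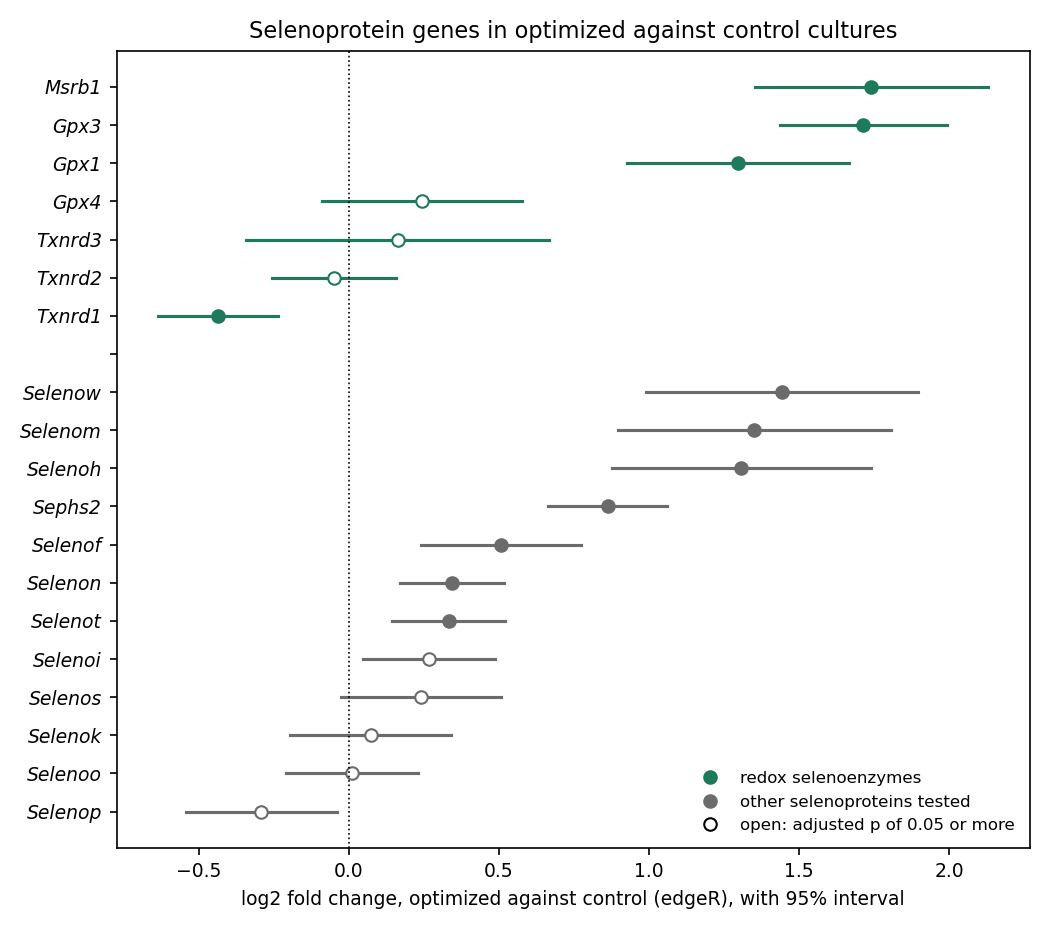
Log2 fold change, optimized minus control, with 95% confidence interval for the 19 selenoproteins that passed the filter, the 7 redox selenoenzymes in green above the other 12 in grey, with open points where the adjusted p was 0.05 or more. Of the 19, 10 were called higher, Txnrd1 was called lower and 8 were not called.

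The selenocysteine machinery list holds genes that supply, make or decode selenocysteine. Among them are Sephs1, a relative of Sephs2, and Lrp2 and Lrp8, receptors that take up Selenop. All 11 of its listed genes were tested, and Sephs2 alone passed, while 10 did not, with a median log2 fold change of -0.11. That median was the value of Lrp8, and Lrp2 had 12 to 41 counts per library. The lowest was Scly, the lyase that frees selenium from selenocysteine, at -0.30 (adjusted p = 0.121 by edgeR). Without optimized replicate 2 the machinery had 3 called genes, with Scly at -0.43 and an adjusted p of 0.0284, and without optimized replicate 1 it had 2.

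Among 7 relatives of the selenoenzymes that carry no selenium, 5 were tested, and 1 rose, 1 fell and 3 did not pass. Msrb2, the mitochondrial reductase of methionine R-sulfoxide, went from 9.94 ± 0.974 to 16.6 ± 3.46 CPM (SD, n = 3 each; log2 fold change 0.74, adjusted p = 0.00678 by edgeR). Msra went the other way, from 17.0, 18.8 and 20.4 CPM to 11.2, 15.3 and 12.4 CPM (log2 fold change -0.53, adjusted p = 0.0151), and this call was lost without control replicate 2 or 3 or optimized replicate 3 (adjusted p from 0.057 to 0.0655). Gpx8, a peroxidase of the endoplasmic reticulum, was at 0.306 to 1.52 CPM and had a log2 fold change of 1.03 that did not pass (adjusted p = 0.107), although it did without optimized replicate 2 (1.30, adjusted p = 0.0484). The number of called relatives was 3 without that library and 1 without control replicate 2 or 3 or optimized replicate 3.

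The glutathione peroxidases depend on reduced glutathione. Of the 11 glutathione supply genes, 1 rose, 5 fell and 5 did not pass, with a median log2 fold change of -0.45. Gsr, the glutathione reductase, was at 91.9, 103 and 106 CPM in control and 38.4, 41.1 and 39.4 CPM in optimized libraries (log2 fold change -1.34 ± 0.09 SE, adjusted p = 2.83e-06 by edgeR). Slc7a11, the cystine carrier, fell by 1.22 on the log2 scale, whereas its partner chain Slc3a2 rose by 0.45, a call that was lost without control replicate 1 or 2 or optimized replicate 3 (adjusted p from 0.0621 to 0.0716). Gclm and Gss, of glutathione synthesis, and the glutaredoxin Glrx fell too, and these calls and those of Gsr and Slc7a11 held in each of the 6 fits that leave out 1 library.

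The thioredoxin reductases serve thioredoxins and, through them, peroxiredoxins. Of 12 genes of that group, 3 rose (Nxn, Prdx4 and Prdx6), 5 fell (Prdx1, Srxn1, Txnip, Txn2 and Txnl1) and 4 did not pass, with a median log2 fold change of -0.37. Prdx1, an abundant cytosolic peroxiredoxin, went from 2343, 2556 and 3013 CPM to 952, 1219 and 1180 CPM (log2 fold change -1.24, adjusted p = 8.8e-05 by edgeR). Srxn1, which repairs overoxidized peroxiredoxins, and Txnip, which binds and inhibits thioredoxin, fell as well, with log2 fold changes of -1.153 and -1.149. Nxn, nucleoredoxin, was at 0.962 to 2.72 CPM, with a log2 fold change of 1.02 whose call was lost without control replicate 1 or 3 or optimized replicate 2 (adjusted p from 0.0517 to 0.0731). The calls on Prdx1, Srxn1 and Txnip held in each of the 6 fits that leave out 1 library, and those on Nxn, Prdx4, Prdx6, Txn2 and Txnl1 did not. The count of called genes, 8 with all libraries, was 3 in the absence of control replicate 3, and 4 in the absence of either other control library or of optimized replicate 3. Txn1, the main substrate of Txnrd1, was at 130, 132 and 156 CPM in control and 83.2, 131 and 115 CPM in optimized libraries, and its log2 fold change of -0.34 did not pass (adjusted p = 0.130). It was called as lower without optimized replicate 2 (-0.50, adjusted p = 0.0208), with library totals as the scale (adjusted p = 0.0166), with limma on genes of mean FPKM at least 1 (0.0306) and with the gene length trend removed (0.00817).

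NRF2 is a transcription factor of the oxidative stress response, and Txnrd1 is among its known targets. Of the 15 other genes listed for the NRF2 pathway and NADPH supply, 10 fell and 5 did not pass, with a median log2 fold change of -0.55. The list shares Prdx1, Srxn1 and Txn1 with the thioredoxin group and Gclc, Gclm and Slc7a11 with glutathione supply, so that these lists are not independent of each other. Nfe2l2, which encodes NRF2, was at 314, 330 and 336 CPM in control and 163, 163 and 174 CPM in optimized libraries (log2 fold change -0.97, adjusted p = 1.2e-05 by edgeR). G6pdx, which makes NADPH, and Nqo1, a quinone reductase often used as a readout of NRF2, both fell by 1.04 on the log2 scale, although Nqo1 was at 1.32 to 3.87 CPM and its call was lost without control replicate 2 or 3 (adjusted p of 0.0651 and 0.0528). Gclc had the highest value of the list, 0.23, which did not pass (adjusted p = 0.103). Hmox1, far more abundant than Nqo1, did not pass either. It was at 1070 ± 109 CPM in control and 1010 ± 141 CPM in optimized libraries (SD, n = 3 each; log2 fold change -0.08, adjusted p = 0.683 by edgeR). Keap1 was among the 10 that fell (-0.51, adjusted p = 0.00122).

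Catalase breaks down hydrogen peroxide, which the superoxide dismutases form from superoxide. Cat fell from 348 ± 32.1 to 157 ± 7.08 CPM (SD, n = 3 each; log2 fold change -1.153, adjusted p = 1.1e-05 by edgeR) and the mitochondrial Sod2 from 184 ± 19.4 to 62.0 ± 6.23 CPM (log2 fold change -1.57, adjusted p = 4.2e-06). The cytosolic Sod1 rose by 0.60 on the log2 scale, a call that was lost without control replicate 1 or 2 or optimized replicate 2 or 3 (adjusted p from 0.0555 to 0.0984), and Sod3, at 0.35 to 2.03 CPM, did not pass. Among genes of lipid peroxidation and ferroptosis, the process that Gpx4 restrains, 9 of 10 were tested. Alox5 (log2 fold change 1.42), Aifm2 and Lpcat3 rose, Tfrc (-0.85), Fth1 and Acsl4 fell, and 3 did not pass, with a median of 0.03. The call on Acsl4 was lost without control replicate 2 or optimized replicate 3 (adjusted p of 0.0591 and 0.0581).

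**Figure D5:**
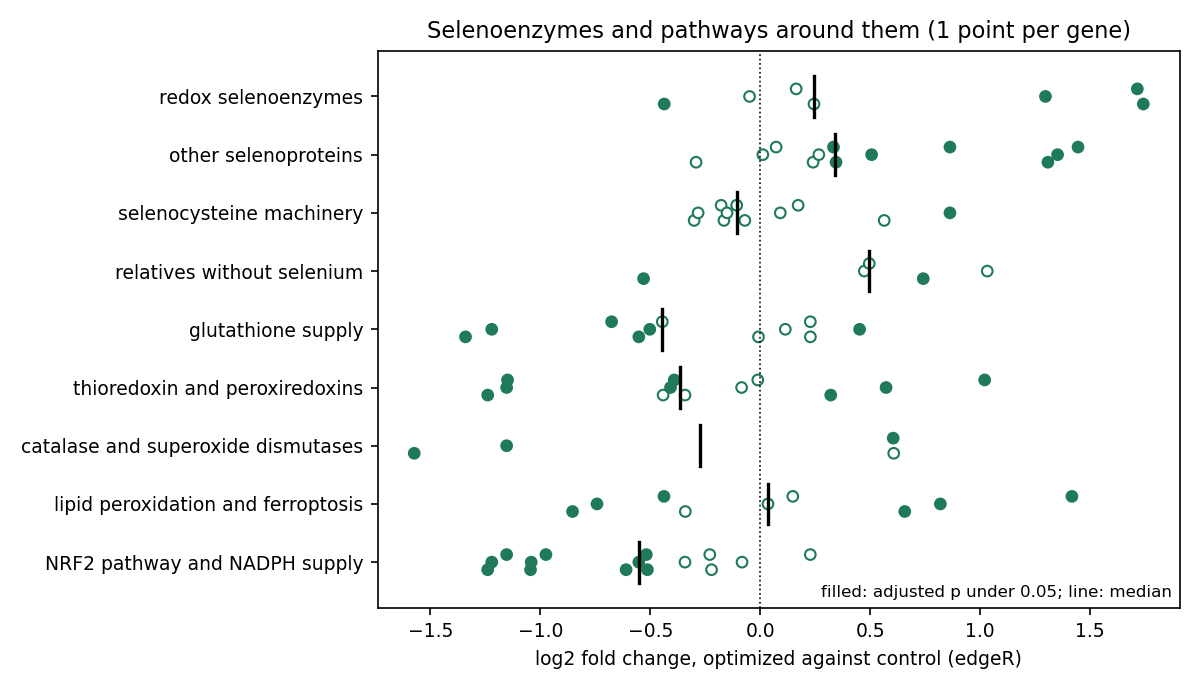
Log2 fold change (optimized minus control) of every gene tested in the redox selenoenzymes and in the lists around them; each point is a gene, filled where the adjusted p is below 0.05, and the black line is the list median. The medians are 0.24 for the redox selenoenzymes, 0.34 for the other selenoproteins, -0.45 for glutathione supply and -0.55 for the NRF2 pathway and NADPH supply.

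The genes most like the outermost members were sought by the root mean square difference in log2 CPM, centered on the control mean, over the 6 libraries and among 9839 genes of at least 5 CPM. Nearest to Msrb1 were H2-DMa, of MHC class II peptide loading (0.077), Ctsd, the lysosomal protease cathepsin D (0.083), and Cebpa, a myeloid transcription factor (0.104). Their log2 fold changes were 1.82, 1.63 and 1.65, beside 1.74 for Msrb1. Nearest to Txnrd1 were Parp10, a mono-ADP-ribosyltransferase (0.0305), Stim2, a calcium sensor of the endoplasmic reticulum (0.0368), and Ttc17 (0.0382), with log2 fold changes of -0.47, -0.48 and -0.45.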

How the data were processed

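RNA of 3 control and 3 optimized cultures was sequenced in paired-end mode. For alignment the authors used HISAT2 with the mm39 genome, and for counting featureCounts, both run in Galaxy. The deposited tables hold raw counts per gene and FPKM values, and each FPKM value is the count after division by a factor of its gene, taken here as a length, and by 1 factor per library. Versions, annotation and strand setting are not given in the sources used here.

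Groups and replicate numbers came from the labels. Counts were tested with edgeR 4.0.16 (filterByExpr, TMM, quasi-likelihood fit) in R 4.3.3, with Benjamini-Hochberg adjustment over the 14618 genes tested, and called at an adjusted p below 0.05. CPM in the text are TMM-scaled, except summed markers, which use library totals. Fold change intervals come from the same fit. Alternatives used DESeq2 1.42.0 and, on log2(FPKM + 1), limma 3.58.1. Library totals were 20628148 to 27261839 counts. The spread between libraries of a condition exceeded counting error (chi-square per degree of freedom 10.7 to 78.3, coefficient of variation 0.128) and set the precision.

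Same-numbered libraries were compared as deviations from their group means. The correlations were 0.48, -0.06 and 0.28, and that of control replicate 3 with optimized replicate 2 was 0.44. These values do not settle whether the numbers mark pairs. The main fit did not take them as pairs, and a fit with a replicate block is given below.

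Codons and positions were read from GENCODE M39 on GRCm39. Amino acid sequences were not used here. The 7 genes and all lists were chosen with earlier results of these data known. Beyond the members, the text names from each list the highest and lowest gene, genes called with an absolute log2 fold change of at least 1, and Gsr, Txn1, Msra, Selenop, Selenow, Sephs2 and Nfe2l2. Selenof, Selenon, Selenot, Sephs1, Lrp2, Lrp8, Msrb2, Gclm, Gss, Glrx, Prdx4, Prdx6, Txn2, Txnl1, Sod1, Aifm2, Lpcat3, Fth1, Acsl4, Hmox1, Keap1, Tnip1, Aldh1l1, Gfap, Nefl and Mbp fall outside that rule and were named after their values were seen.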

Additional observations from a re-analysis of the deposited data

How the results depend on the processing

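Under the 16 alternatives, Gpx1 (log2 fold change 1.14 to 1.46), Gpx3 (1.49 to 1.78), Msrb1 (1.504 to 1.91) and Txnrd1 (-0.58 to -0.38) kept their direction and their calls. Txnrd2 (-0.19 to -0.01) and, under the 15 in which it was tested, Txnrd3 (0.01 to 0.28) stayed uncalled, and Gpx4 (0.09 to 0.39) was called under 2, without optimized replicate 1 (0.39) and with the gene length trend removed (0.27). Library size in place of TMM moved the median of all genes by -0.13 and the share of calls that were higher from 49.1% to 32.3%. The selenocysteine machinery had 1 called gene, and 3 with library size alone, 3 with limma under each FPKM setting and 2 with the gene length trend removed. The relatives without selenium had 2, and 1 with limma on log2(FPKM + 1) or log2(FPKM + 0.1). With 1 library left out, the ranges were 1 to 3 for the machinery, 3 to 8 for the thioredoxin group and 1 to 3 for the relatives. The other selenoproteins had 7 called genes with all libraries, 5 to 9 with 1 left out, and 5 or 6 with limma. Selenop, called as lower, was among those with limma and those without optimized replicate 2. The cause was not tested. With the replicate block 4924 genes were called in place of 4360, no member's call changed, Selenop and Txn1 were called as lower, the other selenoproteins had 8 called genes and the thioredoxin group 10, and not every library correlated best with its own number.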
